A study of Mus musculus with 51 samples.

Results

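Kdm2a, Kdm2b, Kdm3a, Kdm3b, Kdm4a, Kdm4b, Kdm4c, Kdm5a, Kdm6a and Kdm6b encode histone demethylases of the JmjC family, enzymes for which vitamin C (VitC) serves as a helper factor. The 10 genes were chosen by name, with earlier results of these data known. They were taken from 23358 entries per library of the VitC femur RNA data and from 25938 genes of the Tet femur RNA data. All 10 were found in both and all 10 passed the filters on low values. After withdrawal of VitC, the mRNA of 4 of them was higher in femoral bone than with VitC kept and none was lower, where 5.93% of all genes were higher and 7.52% lower. The count fell to 1 or 2 when any 1 of 6 of the 9 libraries was left out, while Kdm3a, with a fold of 1.96, passed each time. In those 6 fits calls over all genes fell as well, from 13.4% to between 3.92% and 10.4%. In femurs with loss of Tet1, Tet2 or both in limb mesenchyme, 0 of the 10 were called against controls, where hardly any gene was called (0.0119%, 0.0119% and 0% of all genes).

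JmjC demethylases remove methyl groups from histone lysines by oxidation, with oxygen, 2-oxoglutarate and reduced iron, and VitC keeps the iron reduced. KDM3 and KDM4 enzymes act on methylated H3K9, a mark of silent chromatin, and KDM4 enzymes also on H3K36. KDM6 enzymes act on H3K27me3, the mark that Polycomb proteins set on silent developmental genes, KDM2 enzymes on H3K36 and KDM5 enzymes on H3K4me3, a mark of active promoters. In bone, enzymes of these groups are known to act in osteoblast differentiation, and TET enzymes, which turn 5-methylcytosine into 5-hydroxymethylcytosine (5hmC), need the same cofactors.

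Femoral bone of C57BL/6 mice, described as freed of marrow and periosteum, was measured by RNA-seq. Wild type mice (WT) were compared to homozygous Gulo knockout mice of the Gulotm1Mae allele, which cannot make VitC. The knockout mice drank water with 3.3 g/L VitC either for all 20 weeks of life (VitC+) or for 15 weeks and then no VitC for 5 weeks (VitC+/-), and all were killed at 20 weeks. The other mice were 11 weeks old, on a standard diet, able to make VitC, and all carried Prrx1-Cre, a transgene that is active in limb mesenchyme and its descendants but not in blood cells or osteoclasts. Mice with Prrx1-Cre and wild type Tet alleles (Ctrl) were compared to mice in which Prrx1-Cre deletes floxed Tet1 (Tet1 cKO), floxed Tet2 (Tet2 cKO) or both (Tet1/2 cKO). Each group gave 3 RNA libraries, 9 in the VitC and 12 in the Tet experiment. Peak lists of 5hmC (hMeDIP-seq) were used for both VitC groups and for Ctrl and Tet1/2 cKO, and lists of 5hmC, H3K27me3 and H3K9me3 for MC3T3-E1 cells, a mouse calvarial pre-osteoblast line, cultured with 50 µg/ml VitC (VitC+) or without (VitC-).

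Reads per VitC library, estimated from the steps of low RPKM values, lay between 31200000 and 47600000 except in WT replicate 1 with 7600000, so that values of this library carry more counting error. VitC+ replicate 1 had the lowest scaling factor, 0.757, against 0.971 to 1.10 in the other 8. In 11 Tet libraries whole reads could be recovered, 28597536 to 49788434 each. Labels could not be checked with the targeted genes. Gulo, a liver gene, was at 0 to 0.537 scaled RPKM over the VitC libraries, with 0 in WT replicate 3, and Tet1 and Tet2 were counted over the whole gene, at 349 to 773 and 1834 to 2970 normalized counts, so that loss of a single exon need not show. Tet1 was not lower but higher in the libraries labelled Tet1 cKO, with 645 normalized counts in Tet1 cKO against 410 in Ctrl, with no overlap (log2 fold change 0.64, limma adjusted p = 1.00), and 448 in Tet1/2 cKO. Tet2 had 2096 in Tet2 cKO and 2391 in Tet1/2 cKO against 2333 in Ctrl, with groups that overlapped. Tet groups are therefore named as the libraries are labelled. Markers of osteoblasts and osteocytes were present in each library, next to markers of osteoclasts, neutrophils and B-cell precursors. In WT, summed neutrophil markers were at 52982 to 74781 scaled RPKM, against 1038 to 3927 for osteoblast and osteocyte markers. RNA of marrow cell types was thus still part of these libraries. In bulk bone, fewer cells of a type and less RNA per cell cannot be told apart. The labels number the libraries but name no animals, so p-values measure the spread between these libraries.

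RPKM relates reads to transcript length and library size, so levels can be compared between genes. All RPKM values here were divided by a factor per library (scaled RPKM). In WT femurs, Kdm2a had the highest mean, 13.3 ± 0.345 (SD, n = 3), and Kdm4b the lowest, 2.92 ± 0.355. Between them Kdm3b, Kdm4a, Kdm6a, Kdm2b, Kdm3a, Kdm4c, Kdm6b and Kdm5a followed in this order of means, from 11.9 to 5.09, and each overlapped the next. In VitC+ femurs Kdm2a, at 12.5 ± 0.838, did not overlap Kdm4a, the next one, and Kdm4b was again the lowest at 3.80 ± 0.523. In VitC+/- femurs Kdm3a stood second with 15.6 ± 1.58, up from rank 6 in WT and 4 in VitC+, and overlapped Kdm2a at 16.8 ± 0.9955. Kdm4c was the lowest there, at 4.71 ± 0.583, and did not overlap Kdm2b, its neighbour in the order.

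**Figure D1:**
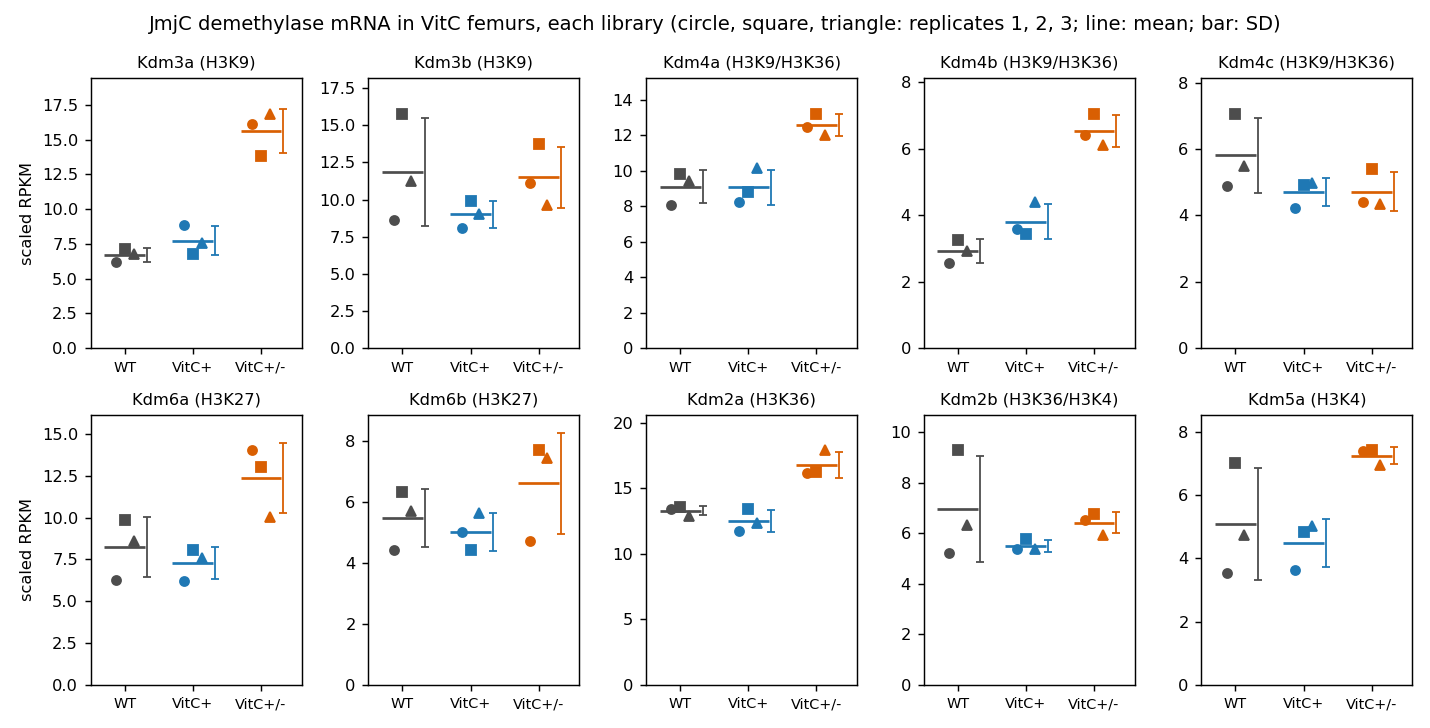
Scaled RPKM (y axis, linear, from 0) of the 10 genes in each VitC femur library by group (x axis). Symbols are replicates 1 to 3, lines the means and bars the SD. All VitC+/- libraries lie above all VitC+ and WT libraries for Kdm3a, Kdm4a, Kdm4b, Kdm6a and Kdm2a, while the groups overlap for Kdm3b, Kdm4c and Kdm6b.

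Kdm3a, on chromosome 6 from 71588972 to 71632905 on the minus strand (GRCm38), encodes a demethylase of mono- and dimethylated H3K9 and is a known target of the hypoxia factor HIF. Its promoter is shown because Kdm3a had the smallest adjusted p of the 10 genes. The window holds 250 bases before and 50 after a start site of the RefSeq annotation (GRCm38), and is 1 of 3 listed for this gene. Capitals mark a match to the core of the HIF response element, ACGTG or GCGTG, searched on both strands, where CACGTG holds a match on each strand.
Kdm3a promoter, chr6:71632868-71633167, minus strand: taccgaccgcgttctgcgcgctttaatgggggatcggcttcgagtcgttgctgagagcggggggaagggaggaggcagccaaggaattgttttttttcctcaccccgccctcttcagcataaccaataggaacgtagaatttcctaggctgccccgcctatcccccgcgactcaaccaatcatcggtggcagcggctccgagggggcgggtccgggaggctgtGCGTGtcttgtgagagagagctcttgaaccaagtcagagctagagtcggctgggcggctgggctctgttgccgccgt
The window holds 1 match, at position -27 from the start, and 24 CpG. Of 32851 promoter windows of 300 bases, 43.8% hold at least 1 match, and the median number of CpG is 7. A match of 5 letters is a description of the sequence and no binding site.

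In the VitC+ libraries, Kdm3a had a scaled RPKM of 8.82, 6.79 and 7.59, and in the VitC+/- libraries of 16.1, 13.8 and 16.9. WT libraries had 6.18, 7.15 and 6.75. Every VitC+/- library was well above each of the other 6, while WT and VitC+ overlapped. Between VitC+/- and VitC+, Kdm3a was higher by 0.97 on the log2 scale (standard error 0.15, 95% interval 0.64 to 1.30, limma adjusted p = 0.00553). Against WT it was higher with 1.16 (standard error 0.15, limma adjusted p = 0.00105). It passed under all 18 alternative settings in both comparisons, with values from 0.89 to 1.09 and from 1.09 to 1.25.

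Kdm3b, on chromosome 18, encodes the closest relative of KDM3A. Its scaled RPKM was 8.09, 9.88 and 9.01 in VitC+, 11.1, 13.7 and 9.65 in VitC+/- and 8.63, 15.8 and 11.2 in WT. The 3 groups overlapped, and the widest spread was within WT. The log2 fold change of VitC+/- was 0.33 against VitC+ (limma adjusted p = 0.341, 95% interval -0.16 to 0.82) and -0.02 against WT (limma adjusted p = 0.959, 95% interval -0.51 to 0.47). The ratio of Kdm3a to Kdm3b was 0.687 to 1.09 in VitC+, 1.01 to 1.75 in VitC+/- and 0.453 to 0.716 in WT, so that VitC+ and VitC+/- overlapped in it.

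Kdm4a, Kdm4b and Kdm4c encode demethylases of trimethylated H3K9 and H3K36. For Kdm4b, on chromosome 17 from 56326050 to 56402873 on the plus strand, the scaled RPKM was 3.57, 3.43 and 4.40 in VitC+, 6.42, 7.05 and 6.11 in VitC+/- and 2.55, 3.26 and 2.93 in WT. The 3 groups did not overlap, with WT at the bottom and VitC+/- at the top. Kdm4b was higher in VitC+/- than in VitC+ by 0.71 on the log2 scale (standard error 0.16, 95% interval 0.36 to 1.07, limma adjusted p = 0.0213) and a fold of 1.64. Against WT it was higher with 1.04 (standard error 0.16, limma adjusted p = 0.00208), under all 18 alternatives as well. The call against VitC+ was lost without VitC+ replicate 1 (adjusted p = 0.0721), VitC+ replicate 2 (0.0872), VitC+/- replicate 1 (0.0731) or VitC+/- replicate 2 (0.0543), by limma.

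Kdm4a, on chromosome 4 from 118137004 to 118180043 on the minus strand, had a scaled RPKM of 8.23, 8.82 and 10.2 in VitC+, 12.4, 13.2 and 12.01 in VitC+/- and 8.07, 9.83 and 9.42 in WT. All VitC+/- libraries were above the other 6. Its log2 fold change was 0.45 in both comparisons (standard error 0.14 in each), with a limma adjusted p of 0.0576 against VitC+, where it was not called, and 0.0349 against WT, where it was higher. The call against WT held only without WT replicate 2 (0.0339) or VitC+ replicate 1 (0.0456), and was lost without any of the other 7 libraries (adjusted p from 0.0501 without VitC+ replicate 3 to 0.0913 without VitC+/- replicate 1). Its promoter, shown next to that of Kdm3a, holds no match to ACGTG or GCGTG and 13 CpG, so that no letter is in capitals.
Kdm4a promoter, chr4:118179994-118180293, minus strand: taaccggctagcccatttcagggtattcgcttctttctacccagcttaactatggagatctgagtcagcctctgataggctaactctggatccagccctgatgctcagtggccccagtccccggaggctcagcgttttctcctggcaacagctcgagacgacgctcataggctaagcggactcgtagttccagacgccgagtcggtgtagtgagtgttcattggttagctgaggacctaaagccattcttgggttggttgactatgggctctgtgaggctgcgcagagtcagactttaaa

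Kdm4c, also on chromosome 4, had a scaled RPKM of 4.21, 4.91 and 4.97 in VitC+, 4.40, 5.38 and 4.35 in VitC+/- and 4.88, 7.06 and 5.48 in WT. VitC+ and VitC+/- covered nearly the same range. The log2 fold change against VitC+ was 0.00 (limma adjusted p = 0.996, 95% interval -0.39 to 0.39), with a sign that turned under quantile normalization (-0.04), and -0.27 against WT (limma adjusted p = 0.262). The ratio of Kdm4b to Kdm4c was 0.698 to 0.886 in VitC+, 1.31 to 1.46 in VitC+/- and 0.462 to 0.535 in WT. Kdm4b was thus below Kdm4c in all 6 libraries with VitC and above it in all 3 libraries without, and the 3 groups did not overlap. The ratio of Kdm4b to Kdm4a, 0.389 to 0.434, 0.509 to 0.533 and 0.311 to 0.332 in the same order, did not overlap either.

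KDM6A (UTX) and KDM6B (JMJD3) remove H3K27me3. Kdm6a, on chromosome X from 18162667 to 18279358 on the plus strand, is shown with its promoter because it holds 4 matches to the same core, again in capitals, at positions -159, -27, -26 and 42 from the RefSeq start, those at -27 and -26 being both strands of 1 CACGTG. Of all windows, 8.93% hold 3 or more matches. The Kdm6a window also holds 21 CpG, against a median of 7 per window. The Kdm2b window, 1 of 4 listed for the gene, holds 1 match. That of Kdm4c, 1 of 2 and with 0 CpG, holds none. Matches in their other windows are not given here. For Kdm2a, Kdm3b, Kdm4b, Kdm5a and Kdm6b no promoter window was available, so their matches are unknown.
Kdm6a promoter, chrX:18162325-18162624, plus strand: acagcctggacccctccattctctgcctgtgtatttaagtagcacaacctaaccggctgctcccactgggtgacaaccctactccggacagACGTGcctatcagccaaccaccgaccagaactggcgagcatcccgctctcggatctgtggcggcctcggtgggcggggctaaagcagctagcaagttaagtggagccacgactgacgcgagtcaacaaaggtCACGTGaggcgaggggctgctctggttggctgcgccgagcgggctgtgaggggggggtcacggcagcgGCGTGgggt

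Kdm6a had a scaled RPKM of 6.22, 8.07 and 7.62 in VitC+, 14.0, 13.0 and 10.0 in VitC+/- and 6.29, 9.85 and 8.61 in WT. The VitC+/- libraries were above the other 6, the lowest of them only just above the highest WT library. Kdm6a was higher than in VitC+ by 0.72 on the log2 scale (standard error 0.20, 95% interval 0.27 to 1.16, limma adjusted p = 0.0447), a fold of 1.64. Against WT it was not called, with 0.56 (standard error 0.20, limma adjusted p = 0.0560). By limma, the call was lost without WT replicate 3 (adjusted p = 0.0700), VitC+ replicate 1 (0.139), 2 (0.0929) or 3 (0.105) or VitC+/- replicate 1 (0.148) or 2 (0.0989). Xist, which is made from the inactive X chromosome, was at 30.9 to 53.4 scaled RPKM in all 9 libraries, and Uty, the partner of Kdm6a on chromosome Y, at 0.0259 to 0.218. In the Tet libraries Xist was at 0.916 to 177 normalized counts and Uty at 765 to 1183. Ddx3y, also on chromosome Y, was at 0 to 0.146 scaled RPKM in the VitC libraries and at 2891 to 5452 normalized counts in the Tet libraries. The VitC libraries thus had the pattern of female mice and the Tet libraries that of male mice.

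Kdm6b, on chromosome 11, had a scaled RPKM of 5.01, 4.41 and 5.65 in VitC+, 4.71, 7.70 and 7.43 in VitC+/- and 4.43, 6.32 and 5.70 in WT. VitC+/- replicate 1 lay within the other groups, and the other two VitC+/- libraries above them. The log2 fold change was 0.34 against VitC+ (limma adjusted p = 0.305, 95% interval -0.13 to 0.82) and 0.23 against WT (limma adjusted p = 0.428).

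KDM2A and KDM2B remove methyl groups from H3K36, and bind unmethylated CpG islands. Kdm2a lies on chromosome 19 from 4316147 to 4397077 on the minus strand. Its scaled RPKM was 11.8, 13.4 and 12.4 in VitC+, 16.1, 16.2 and 17.9 in VitC+/- and 13.5, 13.5 and 12.9 in WT. The VitC+/- libraries were above all others, and WT and VitC+ overlapped. Kdm2a was higher than in VitC+ by 0.41 on the log2 scale (standard error 0.12, the smallest of the 10, 95% interval 0.14 to 0.67, limma adjusted p = 0.0493) and a fold of 1.33. The call was lost without any 1 of the 6 VitC+ and VitC+/- libraries (adjusted p from 0.0786 without VitC+/- replicate 2 to 0.151 without VitC+ replicate 1) or without WT replicate 3 (0.0822), by limma. Against WT it was 0.32 (limma adjusted p = 0.0641).

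Kdm2b, on chromosome 5, belongs to a Polycomb complex. Its scaled RPKM was 5.38, 5.77 and 5.37 in VitC+, 6.55, 6.76 and 5.95 in VitC+/- and 5.23, 9.29 and 6.34 in WT. VitC+/- lay just above VitC+ without overlap, and within the range of WT. The log2 fold change was 0.20 against VitC+ (limma adjusted p = 0.514) and -0.07 against WT (limma adjusted p = 0.802).

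KDM5A removes methyl groups from H3K4. Kdm5a lies on chromosome 6 from 120364099 to 120444574 on the plus strand. Its scaled RPKM was 3.62, 4.85 and 5.02 in VitC+, 7.38, 7.42 and 6.94 in VitC+/- and 3.52, 7.00 and 4.74 in WT. VitC+/- libraries were above all VitC+ libraries, while WT replicate 2 was above the lowest of them. Kdm5a was not called, at a log2 fold change of 0.64 against VitC+ (standard error 0.23, limma adjusted p = 0.0868) and 0.52 against WT (standard error 0.23, limma adjusted p = 0.109). WT replicate 2 also had the highest value of all 9 libraries for Kdm2b, Kdm3b and Kdm4c.

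Over the 10 genes, VitC+/- against VitC+ gave 4 calls higher and 0 lower by limma, where 5.93% of the 12586 genes tested were called higher and 7.52% lower, as above. Groups did not overlap in 7 of 10, all with VitC+/- higher, against 21.4% of all genes. The log2 fold changes were positive in all 10, but that of Kdm4c was near 0 and negative under 4 of the 9 alternatives that leave out no single library, and their median was 0.43, against 0.02 over all genes. Against WT, 3 were called higher and 0 lower, where 15.3% of all genes were called higher and 15.9% lower, and groups did not overlap in 5 of 10, all with VitC+/- higher, against 21.4% of genes. The median there was 0.38 against 0.01. Both comparisons use the same VitC+/- libraries. Without further scaling of the RPKM values the median over all genes rose to 0.13 against VitC+, and only Kdm3a passed, as also when WT replicate 1 and VitC+ replicate 1 were both left out. Leaving out single libraries gave 1 to 6 calls against VitC+, with Kdm3a as the 1 call without VitC+ replicate 1, VitC+ replicate 2, VitC+/- replicate 1 or VitC+/- replicate 2 each, 2 calls without VitC+ replicate 3 or WT replicate 3, and 6 without WT replicate 1 or 2. Of all genes, 3.92% to 10.4% were called in the fits with 1 or 2 calls, and 18.3% and 17.4% without WT replicate 1 or 2.

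Between WT and VitC+ femurs, which ask whether supplied VitC replaces the mouse's own, 0 of the 10 genes and 0 of all 12586 genes (0%) were called by limma. At an unadjusted p under 0.05 it was 0 of 10, against 22.0% of all genes. Kdm4b had the smallest adjusted p, at -0.33 on the log2 scale for WT minus VitC+ (standard error 0.16, limma adjusted p = 0.253) and groups that did not overlap, as in 14.5% of all genes. The other 9 genes overlapped between WT and VitC+, with log2 fold changes from -0.19 to 0.35 and a median over the 10 of 0.12, against 0.04 for all genes.

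**Figure D2:**
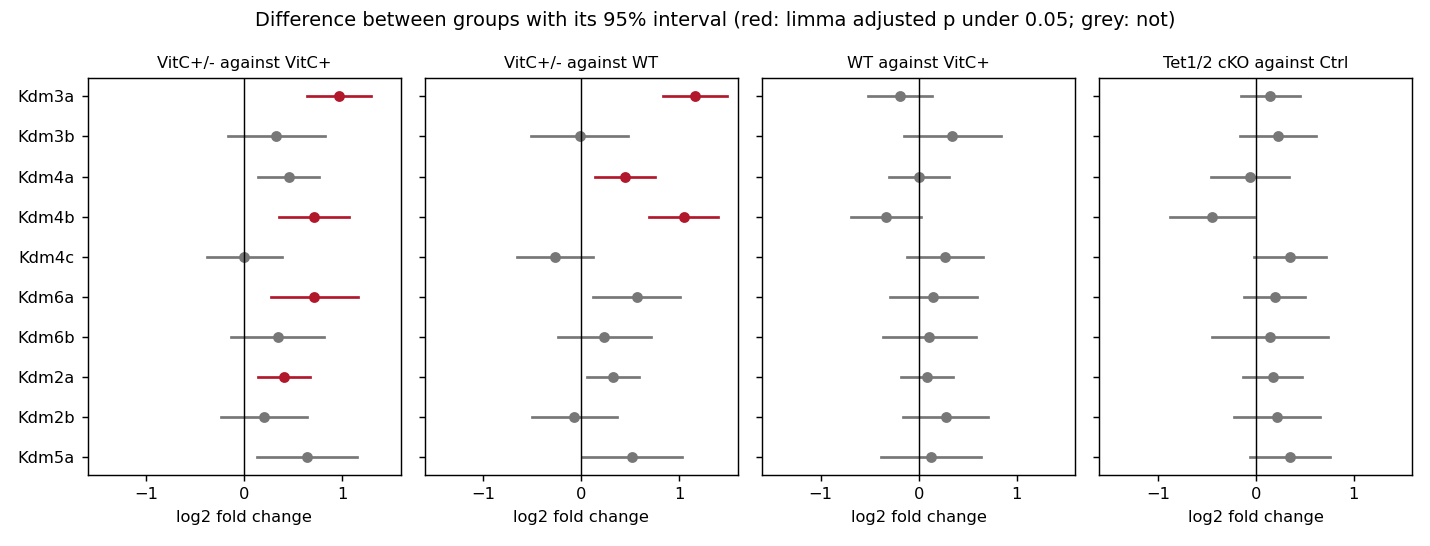
Log2 fold change (x axis) of the 10 genes (y axis) in 4 comparisons. Points are limma estimates and lines their 95% intervals, red where the adjusted p is under 0.05. Kdm3a, Kdm4b, Kdm6a and Kdm2a are red against VitC+ and Kdm3a, Kdm4b and Kdm4a against WT, and no gene is red in WT against VitC+ or Tet1/2 cKO against Ctrl.

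Marker mRNA of several cell types differed between these femurs as well. In VitC+/-, 5.93% of all genes were called higher and 7.52% lower against VitC+, and 15.3% and 15.9% against WT. Of 12 osteoblast and osteocyte markers, 5 were lower and none higher in VitC+/- than in VitC+ (median log2 fold change -1.56), and their summed level was 5455 to 10415 scaled RPKM in VitC+, 708 to 4498 in VitC+/- and 1038 to 3927 in WT. Of 8 osteoclast markers, 3 were higher (median 0.72), with sums of 1872 to 2570, 2916 to 6466 and 783 to 856 in the same order. Of 9 B-cell precursor markers, 8 were lower (median -2.23), with sums of 79.0 to 157, 14.0 to 27.1 and 48.0 to 166. Of 10 neutrophil markers, 3 were lower (median -1.30), with sums of 29750 to 47021, 7147 to 24059 and 52982 to 74781. Among erythroid markers 1 of 5 was higher, among chondrocyte markers 1 of 4 and among T cell markers 1 of 4 were lower, and none of 8 muscle, 7 adipocyte and 5 endothelial markers was called. Against WT, 7 of 8 osteoclast, 6 of 7 adipocyte and 4 of 5 endothelial markers were higher and all 10 neutrophil and 8 of 9 B-cell precursor markers lower. Of the 12 osteoblast and osteocyte markers, 1 was higher and 2 were lower than in WT, with a median log2 fold change of 0.08. No marker tested in these 4 leading lists was at 0 in a whole group. Their part in the levels of the 10 genes was not tested.

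Of 21 other genes with a JmjC domain, 17 passed the filter (median log2 fold change against VitC+ 0.06, all genes 0.02). Where 5.93% of all genes were higher and 7.52% lower against VitC+, none of these was higher and 1 was lower. This was Jmjd8, a JmjC protein outside the nucleus, with 7.25 scaled RPKM in VitC+/- and 10.9 in VitC+ (log2 fold change -0.56, standard error 0.15, limma adjusted p = 0.0410). Against WT none was higher and 3 were lower, where 15.3% of all genes were higher and 15.9% lower, namely Riox2 (-1.11, limma adjusted p = 0.0122), Jmjd8 (-0.53, 0.0260) and Riox1 (-0.49, 0.0417), of which the RIOX proteins are hydroxylases of ribosomal proteins. Whether these genes differ as a list from the 10 was not tested. Neither Kdm1a nor Kdm1b, which remove methyl groups with a flavin in place of iron, was called in either comparison (medians 0.14 and 0.22). Of the TET genes, Tet2 was higher in VitC+/-, at 8.07 against 3.85 scaled RPKM (log2 fold change 0.98, standard error 0.20, limma adjusted p = 0.0153), Tet3 was not called (0.55, limma adjusted p = 0.0673) and Tet1 did not pass the filter.

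Among the enzymes that set the marks, those of H3K4 and H3K36 had the most calls. Of 11 tested, 3 were higher than in VitC+ and none lower, where 5.93% of all genes were higher and 7.52% lower. All 11 were positive with a median of 0.61 on the log2 scale. Kmt2b rose by 1.02 (limma adjusted p = 0.0206), Setd1a by 0.97 (0.0278) and Kmt2d, whose protein shares a complex with KDM6A, by 0.82 (0.0397), on the log2 scale. Of 7 H3K9 methyltransferases, Setdb2 was higher (0.62, limma adjusted p = 0.0457) and the median was 0.31. Of 10 genes of the H3K27 methyltransferase complex, only Ezh2, its catalytic subunit, was called, at 12.4 scaled RPKM in VitC+/- and 22.7 in VitC+ (log2 fold change -0.86, standard error 0.23, limma adjusted p = 0.0389), and the median was -0.02. EZH2 is known to be abundant in dividing cells.

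Of 7 partners of KDM6A in the KMT2C and KMT2D complexes, Paxip1 was higher (0.60, limma adjusted p = 0.0420) and Pagr1a lower (-0.77, 0.0137), with a median of -0.01. None of 8 partners of KDM2B was called (median 0.08). Of 17 HIF targets, 5 were higher against VitC+, where 5.93% of all genes were, and none lower (median 0.23). Against WT 6 were higher, where 15.3% of all genes were, and none lower (median 0.37). The largest changes against VitC+ were in Ddit4, an inhibitor of mTORC1 (2.07, limma adjusted p = 0.0259), Bnip3, a mitophagy receptor (1.90, 0.00812), Slc2a1, a glucose transporter (1.20, 0.0274), and Vegfa, the angiogenic factor (0.93, 0.04997). Of 10 tested genes for the supply of 2-oxoglutarate, iron or VitC, Idh1, which makes 2-oxoglutarate in the cytosol (-0.86, limma adjusted p = 0.0111), and D2hgdh, which turns D-2-hydroxyglutarate into it (-0.92, 0.0125), were lower and none was higher than in VitC+ (median 0.16). Against WT, 1 was higher and 4 were lower, where 15.3% of all genes were higher and 15.9% lower. Of the 15 genes named from these lists against VitC+, Bnip3 passed under all 18 alternatives, Idh1 under 16, Tet2 and D2hgdh under 15, and Vegfa, at the threshold, under 6 of 18. Vegfa was not alone in this. In the 9 fits without a single library, Jmjd8 and Setdb2 passed in 2, and Kmt2d, Paxip1 and Vegfa in 3. Kmt2b, Setd1a and Ddit4 passed in 4, Ezh2 and Slc2a1 in 5 and Pagr1a in 6.

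The 10 genes did not vary as 1 unit. Across the 9 VitC libraries, Pearson r of log2 values over the 45 pairs of members ranged from -0.43 (Kdm3a and Kdm4c) to 0.94 (Kdm2b and Kdm3b) with a median of 0.64, and 41 were positive. Kdm3a and Kdm4b had 0.93, as had Kdm5a and Kdm6a. In the 12 Tet libraries the range was -0.79 (Kdm4b and Kdm6a) to 0.91 (Kdm2b and Kdm3b) with a median of 0.52, and Kdm3a and Kdm4b had -0.58. Libraries of a group share their condition and each point shares a library, so these values only describe the data. Among all genes tested, the one most like a member over the 9 VitC libraries was Mtmr2 for Kdm3a (r = 0.99), Nin for Kdm3b (0.99), Usp33 for Kdm4a (0.99), Phf15 for Kdm4b (0.99), Itpr2 for Kdm4c (0.98), 2310035C23Rik for Kdm6a (0.99), Insl3 for Kdm6b (0.92), Brox for Kdm2a (0.97) and Ftsjd2 for Kdm2b (0.98). Over the 12 Tet libraries these pairs had r = 0.88 for Nin, 0.78 for Itpr2, 0.37 for Brox, -0.07 for Mtmr2 and -0.09 for Usp33, and the other 4 genes had no value there.

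In the Tet femurs, the authors' normalized counts were used, which depend on gene length and are therefore compared only within a gene. Of the 10 genes 0 were called against Ctrl in Tet1 cKO, Tet2 cKO and Tet1/2 cKO by limma, where 0.0119%, 0.0119% and 0% of 16780 genes were called. By edgeR and DESeq2 on recovered reads it was also 0 of 10 in each. At an unadjusted p under 0.05 it was 0, 0 and 1 of 10, the last being Kdm4b, against 2.28%, 2.19% and 5.05% of all genes. The median log2 fold change of the 10 was -0.00, -0.01 and 0.18, against -0.01 in each case over all genes. In Tet1/2 cKO, 8 of 10 were positive.

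Kdm4b had normalized counts of 992, 849 and 963 in Ctrl, 783, 1005 and 1224 in Tet1 cKO, 1392, 1029 and 1181 in Tet2 cKO and 744, 628 and 683 in Tet1/2 cKO. The 3 Tet1/2 cKO libraries were the lowest of the 12, and the Tet2 cKO libraries were above all Ctrl libraries. Against Ctrl the log2 fold change was -0.45 in Tet1/2 cKO (standard error 0.19, limma adjusted p = 0.723), with no overlap, as in 10.0% of all genes in this direction. In Tet2 cKO it was 0.35 (standard error 0.19, limma adjusted p = 1.00), with no overlap, as in 2.54% of all genes. Between Tet1/2 cKO and Tet2 cKO, a comparison chosen after seeing these values, it was -0.80 (standard error 0.19, limma adjusted p = 0.245), and 2 of 21 alternatives passed, DESeq2 on recovered reads (adjusted p = 0.0107) and limma without Tet2 cKO replicate 2 (0.0439). With these alternatives 1.59% and 4.45% of all genes were called, against 0.0119% in the limma fit of all libraries, and 7.91% of all genes had groups that did not overlap in this direction. In that limma fit 0 of the 10 genes were called between Tet1/2 cKO and Tet2 cKO. The log2 fold changes of 8 genes were positive there, the largest being 0.44 for Kdm5a and 0.39 for Kdm6a.

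Kdm4c had 1651, 1161 and 1387 normalized counts in Ctrl and 1945, 1796 and 1573 in Tet1/2 cKO. The groups overlapped, and the log2 fold change was 0.35 (standard error 0.17, limma adjusted p = 0.723). Kdm5a had 4741, 3308 and 3646 in Ctrl and 6446, 4359 and 4207 in Tet1/2 cKO, with Tet1/2 cKO replicate 1 far above the others, and was at 0.35 on the log2 scale (standard error 0.19, limma adjusted p = 0.723). Kdm6a had 2446, 1993 and 2031 in Ctrl and 2360, 2516 and 2504 in Tet1/2 cKO, with 0.20 (standard error 0.14, limma adjusted p = 0.723).

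Kdm3a stayed within 2544 to 3325 normalized counts over all 12 libraries, a ratio of 1.31 between the highest and the lowest. Kdm2a stayed within 6028 to 7684, a ratio of 1.27, and its Tet1/2 cKO libraries, at 7430 to 7684, lay above those of Ctrl, at 6028 to 7223, a lack of overlap shared by 7.37% of all genes in this direction. Kdm6a in Tet1 cKO, at 1842 to 1968, lay below Ctrl, as did 3.54% of all genes. Widest among the others were Kdm5a and Kdm6b, each with a ratio of 1.95. Kdm3b ranged from 4672 to 7519, Kdm4a from 2676 to 4175, Kdm2b from 796 to 1262 and Kdm6b from 1255 to 2447. None of the cell type markers was called in Tet1/2 cKO against Ctrl by limma, as no gene was, but list medians lay on both sides of 0. The median log2 fold change was -3.87 over 8 muscle markers, whose sum was 3335 to 457871 normalized counts in Tet1/2 cKO and 122224 to 523420 in Ctrl, and -1.17 over 12 osteoblast and osteocyte markers, at 313122 to 687464 and 993164 to 1283740. It was -2.39 over 5 chondrocyte, -1.18 over 8 osteoclast, -1.06 over 8 adipocyte and -0.47 over 9 B-cell precursor markers, and 0.71 over 10 neutrophil markers, all 10 positive. Their part in the Kdm4b levels was not tested.

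**Figure D3:**
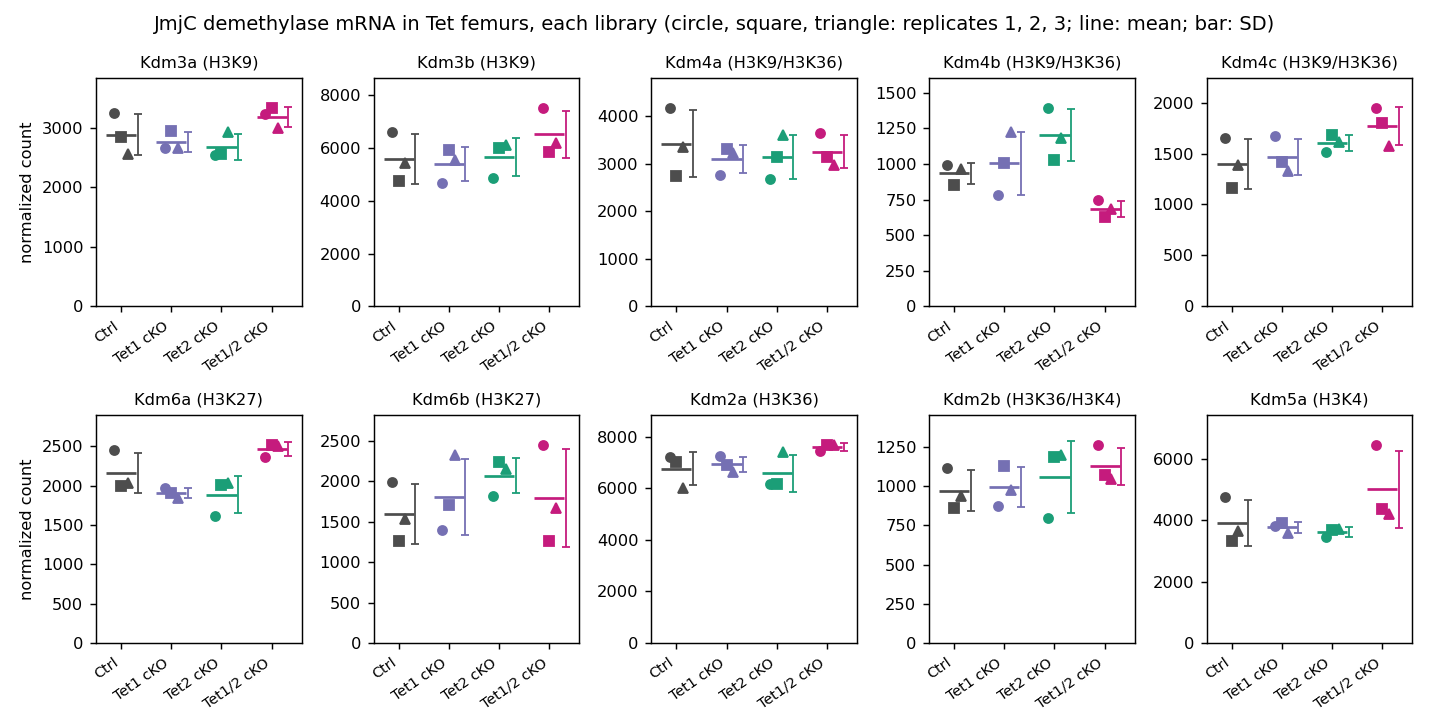
Normalized counts (y axis, linear, from 0) of the 10 genes in each Tet femur library by group (x axis). Symbols are replicates 1 to 3, lines the means and bars the SD. Kdm4b is lowest in the 3 Tet1/2 cKO libraries, at 628 to 744, and the other genes show mostly overlapping groups.

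The genes themselves carried 5hmC peaks in every list that covers them. A peak was counted when its midpoint lay within 30 kb of the start site, and each group had 1 list pooled by the authors, so no test was made. In VitC+ femurs 91 peaks lay near 9 of the genes and in VitC+/- femurs 88. The VitC femur lists used here cover chromosomes 1 to 19, so that Kdm6a has no value. Of these peaks 50.8% were in VitC+, against 50.4% near 19896 genes, and 5 genes had more in VitC+, 3 more in VitC+/- and 1 the same number. Over all genes 44.1% had more in VitC+ and 38.7% more in VitC+/-. Kdm3a had 14 and 13 peaks, Kdm3b 17 and 13, Kdm2a 17 and 15, Kdm5a 14 and 13, Kdm4c 12 and 15, Kdm4a 6 and 7, Kdm2b 4 and 6 and Kdm6b 4 and 4. Kdm4b had the fewest, 3 and 2. Covered length averaged 5426 bp per gene in VitC+ and 4834 bp in VitC+/-, against 4251 and 3864 bp over all genes.

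Peaks nearest to the promoters of the genes that led the mRNA results are shown with CpG in capitals, because 5hmC is mostly found at CpG. Centred at position -900 from the start of Kdm3a lay a VitC+ femur peak of 224 bp with a fold over background of 3.19. It holds no CpG, so that no letter is in capitals, and its GC content is 31.7%. In VitC+/- femurs a peak of 633 bp with a fold of 6.04 covers the same spot, and in VitC- MC3T3-E1 cells a peak of 422 bp with a fold of 4.75.
Kdm3a upstream 5hmC peak of VitC+ femurs, chr6:71633694-71633917, minus strand: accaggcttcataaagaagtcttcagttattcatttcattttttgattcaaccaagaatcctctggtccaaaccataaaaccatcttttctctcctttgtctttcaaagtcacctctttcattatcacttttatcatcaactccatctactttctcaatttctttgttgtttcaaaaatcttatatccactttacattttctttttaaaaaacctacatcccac
The other sequence is the peak of 241 bp centred at position -1256 from the start of Kdm4b in VitC+/- femurs, with a fold of 3.68 and 2 CpG. A peak of 256 bp with a fold of 3.29 was called in VitC+ femurs at the same place.
Kdm4b upstream 5hmC peak of VitC+/- femurs, chr17:56324674-56324914, plus strand: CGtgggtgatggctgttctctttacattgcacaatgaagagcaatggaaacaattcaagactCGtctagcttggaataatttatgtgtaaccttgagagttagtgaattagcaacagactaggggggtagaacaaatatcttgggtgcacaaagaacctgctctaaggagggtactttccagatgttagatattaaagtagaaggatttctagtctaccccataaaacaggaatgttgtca

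Between Ctrl and Tet1/2 cKO femurs the number of 5hmC peaks near the 10 genes was 115 against 56. All 10 genes had more in Ctrl, as had 76.9% of 20805 genes. Of the peaks 67.3% were in Ctrl, against 63.9% over all genes, and the covered length averaged 10424 and 3855 bp per gene, against 9105 and 4131 bp over all genes. Kdm2a had 14 and 2 peaks with highest folds of 7.45 and 4.41, Kdm6a 8 and 1, Kdm3a 10 and 3 and Kdm4a 19 and 7. At Kdm3b, with 14 and 13 peaks and highest folds of 8.66 and 8.99, the lists were most alike. The whole Ctrl list covers 273 Mb and the Tet1/2 cKO list 123 Mb.

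In MC3T3-E1 cells, 102 peaks of 5hmC were near the 10 genes with VitC and 52 without. All 10 genes had more with VitC, as had 54.1% of 20805 genes, while 40.3% had more without. The share of peaks in the VitC+ list was 66.2% for the 10 genes and 55.5% for all genes, and the covered length averaged 6156 and 2803 bp per gene, against 6048 and 3460 bp over all genes. Kdm2b had the largest difference, 26 and 6 peaks, followed by Kdm3b with 11 and 2 and Kdm6b with 11 and 4. At the start of Kdm6b a peak of 2123 bp with a fold of 11.5 in VitC+ cells stood against 358 bp with a fold of 7.06 in VitC- cells. In Ctrl (2203 bp, fold 7.93) and Tet1/2 cKO femurs (1927 bp, fold 4.803) a peak covered the start of Kdm6b too, and no other of the 10 genes had a peak over its start in any 5hmC list. The smallest differences were at Kdm4a, with 5 and 4 peaks, at Kdm4c, with 6 and 5, and at Kdm5a, with 5 and 4.

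**Figure D4:**
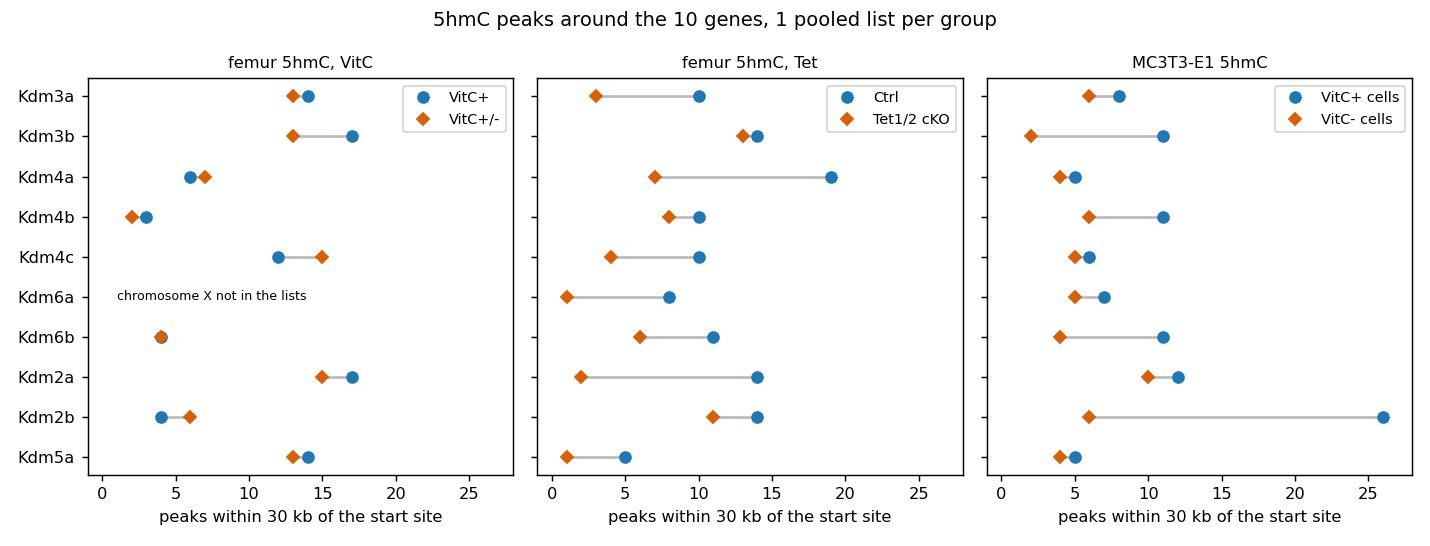
Number of 5hmC peaks within 30 kb of the start site (x axis) for each of the 10 genes (y axis) in 3 pairs of pooled lists. Circles are VitC+ or Ctrl, diamonds VitC+/-, Tet1/2 cKO or VitC-, and lines join the 2 values of a gene. All circles lie to the right of their diamonds in the Tet femurs and in MC3T3-E1 cells, where Kdm2b has 26 and 6 peaks, but not in the VitC femurs.

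**Figure D5:**
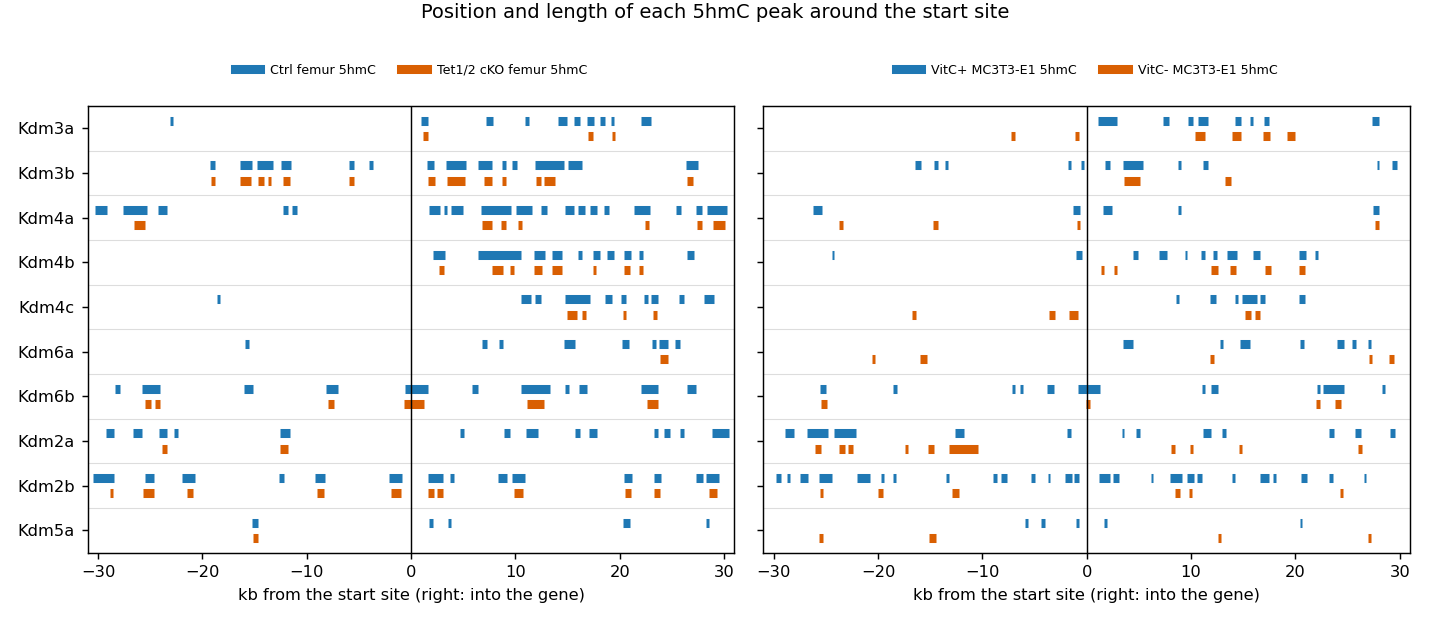
Each 5hmC peak drawn to scale around the start site of the 10 genes (x axis, distance in kb, positive into the gene) for Tet femurs on the left and MC3T3-E1 cells on the right. Blue bars are Ctrl or VitC+ and orange bars Tet1/2 cKO or VitC-. Kdm6b has a peak over its start in all 4 lists.

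Marks that these enzymes remove were called in MC3T3-E1 cells as well. Near the 10 genes H3K27me3 had 18 peaks with VitC and 18 without, a share of 50.0% against 53.9% over all genes. The median number per gene was 0.5 and 1.5, against 1 and 1 over all genes. Covered length averaged 4031 bp per gene with VitC and 5582 bp without, against 5899 and 9015 bp over all genes. Kdm3a had 7 and 7 and Kdm6b 6 and 3, while Kdm3b, Kdm5a and Kdm6a had none in either list. The Kdm6b peaks were fewer but longer without VitC, covering 15709 bp with VitC and 20038 bp without. For H3K9me3, 6 and 9 peaks were found, a share of 40.0% against 40.8%, with a median per gene of 0 and 0.5 against 0 and 0. Of these peaks Kdm3a had 3 and 4 and Kdm4a 2 and 2. They covered on average 530 bp per gene with VitC and 1254 bp without, against 1192 and 1834 bp over all genes. The highest fold of the histone mark peaks near the genes was 3.65, while the median fold over the whole histone mark lists was between 2.44 and 3.27. The labels give 28 days of culture for these cells, whereas the study's methods and peak names give a shorter time for the histone marks.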

How the data were processed

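RNA was taken from femurs described as freed of marrow and periosteum and sequenced as paired reads. Per the submitters' processing notes, reads were trimmed with Trim Galore 0.4.3.1, aligned to mm10 with STAR 2.6.0b-1, counted with featureCounts 1.6.3 and normalized with DESeq2 2.11.40.2. The authors deposited RPKM values per VitC library, and 1 table of normalized counts for the Tet libraries, that is counts divided by a size factor, a signal from which whole reads were recovered in 11 of 12 libraries. The study's methods name FPKM values from cufflinks, and whether the RPKM values were made that way is not given. Peak lists deposited by the authors, made with BWA 0.7.15.1 and MACS2 2.1.1.20160309.6 on pooled samples of a group, hold the fold enrichment (a ratio), −log10 q values and, for MC3T3-E1 5hmC, a pileup signal. The MACS2 version is that of the notes, and the study's methods give an older one.

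RPKM values were first scaled by the median of ratios of each library to the geometric mean of all. The test was limma 3.58.1 (R 4.3.3, with a trend of the variance on the level) over all libraries of an experiment, on log2(RPKM + 0.5) for genes that reached an RPKM of 1 in 3 or more libraries, or on log2(normalized count + 1) for genes that reached 10 in 3 or more. Fold changes are on these scales, which understate the change of low genes. Adjusted p-values are Benjamini-Hochberg values over all genes tested, two-sided, with a threshold of 0.05. The scripts were tested on simulated data. Alternatives were other scalings, pseudocounts and filters, fits of the 2 groups only, a replicate block, array quality weights, edgeR 4.0.16 and DESeq2 1.42.0 on recovered reads of 11 libraries, leaving out each library, and, for peaks, a −log10 q of at least 5, a window of 10 kb or the gene body. Named from other gene lists were the genes called with the largest change, at most 4 per list. For each member the gene with the highest r over the VitC libraries was named, except that of Kdm5a, which is not reported here. Members and lists were chosen with earlier results of these data known. Figures were drawn with matplotlib 3.10.9.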

Additional observations from a re-analysis of the deposited data

How the results depend on the processing

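Kdm3a passed under all 18 alternatives against VitC+ and WT, and Kdm4b under all 18 against WT. The count of 4 genes called against VitC+ fell to 1 with RPKM as deposited, to 1 without WT replicate 1 and VitC+ replicate 1 together (an alternative chosen after seeing the data), and ranged from 1 to 6 when a single library was left out. The count of 3 against WT was 7 with array quality weights, which give the libraries unequal weight, and 2 to 5 when a single library was left out, with 5 without WT replicate 2. Between WT and VitC+ the count was 0 without any single library and 1 with array quality weights. In the Tet comparisons with Ctrl it was 0 under every alternative run. The cause of these moves was not tested.

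Signs turned only for genes without a call. Against VitC+, Kdm4c was -0.040 with quantile normalization, -0.00306 with the 2 groups only, -0.089 with array weights, -0.076 without WT replicate 1 and VitC+ replicate 1 together and between -0.088 and 0.047 without single libraries, and Kdm6b was -0.0049 with array weights. Against WT, Kdm3b was 0.021 with RPKM as deposited and between -0.23 and 0.20 without single libraries, Kdm2b 0.015 with array weights and between -0.26 and 0.14 without single libraries, and Kdm6b -0.11 with array weights. RPKM as deposited also changed the calls over all genes, from 746 higher and 946 lower to 473 and 403 against VitC+, and from 1931 and 2003 to 1565 and 1151 against WT. The total over all genes against VitC+ was 1692, and 487 to 2296 without single libraries, 1092 without WT replicate 1 and VitC+ replicate 1 together and 5129 with array weights. Against WT it was 3934, and 2274 to 4113 and 7500 with array weights. Between WT and VitC+ it was 0, and 604 without WT replicate 1 and 4774 with array weights.

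Replicate numbers are shared between groups. With the replicate block, 3 genes were called against VitC+, without Kdm2a (limma adjusted p = 0.0586), 4 against WT with Kdm6a added (0.0481) and 0 between WT and VitC+, where the block gave 774 calls over all genes, and 0 in the Tet comparisons. Libraries of the same number did not deviate together throughout, with r from -0.19 to 0.46 over 9 pairs of VitC libraries, 4 of them over 0.1, and from -0.57 to 0.53 over 18 Tet pairs, 6 of them over 0.1. By the mean r with the libraries of each number, 8 of 9 VitC libraries were closest to their own number, by the highest single r 6 of 9, a hint from the data and not the design. In the Tet experiment it was 0 of 12 by the mean r. The libraries are therefore taken to share only a number.

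Near the genes, the share of femur 5hmC peaks in Ctrl was 67.3%, and 75.2% at a −log10 q of at least 5. The whole Ctrl list held 213319 of its 259326 peaks at that q, and the Tet1/2 cKO list 82699 of 146626. The share of MC3T3-E1 5hmC peaks in VitC+ was 66.2%, and 76.5% within 10 kb. Shares over all genes were not computed for these settings. At a −log10 q of at least 5 no H3K27me3 or H3K9me3 peak was left near the genes, so these have no value. Few were left in the whole lists either, 392 of 86322 H3K27me3 peaks with VitC and 677 of 84228 without. For H3K9me3 it was 3253 of 33708 and 1840 of 44832. Each peak list is pooled and has no replicate error, reads behind the lists are unknown, and WT replicate 1 with about 7600000 reads limits the precision of low genes.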

Other observations

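The 5hmC peaks near the demethylase genes also differed between lists in how many hold no CpG. In VitC+ femurs 2 of 91 peaks (2.2%) held none, against 7.73% of all peaks on the same chromosomes, and in VitC+/- femurs 4 of 88 (4.55%), against 12.8%. In Ctrl femurs it was 1 of 115 (0.87%), against 1.29%, and in Tet1/2 cKO femurs 0 of 56, against 2.06%. In MC3T3-E1 cells it was 1 of 102 (0.98%) with VitC, against 0.405%, and 5 of 52 (9.62%) without, against 12.6%. CpG per 100 bp of peak near the genes were 0.864 in VitC+, 0.8 in VitC+/-, 1.59 in Ctrl and 1.69 in Tet1/2 cKO femurs, and 1.48 with and 0.778 without VitC in MC3T3-E1 cells. Over all peaks they were 0.929, 0.75, 1.45, 1.53, 1.36 and 0.811 in the same order, and over the chromosomes as a whole 0.813. Kdm6b had peaks over its start in both Tet femur lists and both MC3T3-E1 lists. Within 10 kb of this start, the VitC+ femur list held 1 peak, of 227 bp with a fold of 3.59, and the VitC+/- list none. Over the whole gene body VitC+ had 2 peaks (highest fold 3.895) and VitC+/- had 1, of 260 bp with a fold of 5.451. Within 30 kb each of these lists had 4.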
